A study of Mus musculus with 26 samples.

Results

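The 35 genes described here mark the passage from progenitor to neuron, and were followed across 5 genotypes of mouse glioma. They were taken by symbol from the 24454 genes of the deposited count table, matched through Entrez identifiers, and all 35 were found. The set holds 13 proneural and neuronal transcription factors, 14 genes of immature neurons and 8 genes of mature neurons. Of these, 30 had enough counts to be tested among 15617 genes, and the other 5, all transcription factors, are given as counts.

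RNA was sequenced from GFP-positive cells that had been sorted by flow cytometry from gliomas at an early stage, with GFP switched on by Cre at a Rosa-CAG::GFP reporter. The comparison asks how gene expression in glioma cells differs when Notch receptors or their nuclear partner are lost. The tumours were labelled Rbpj-/- (Rbpj ko, 4 libraries), Notch1-/-Notch2-/- (both receptors ko, 5), Notch1-/- (6), Notch2-/- (5) and control (Notch1, Notch2 and Rbpj wild type, 6), and all 5 genotypes, the control included, were labelled as PDGF-driven and Trp53-/-. The sources used here do not say what drove Cre, nor the age of the mice. No label ties the replicates to different animals, and p-values therefore reflect only how far these libraries spread. Every comparison with control uses the same 6 control libraries. Levels are CPM, counts scaled to the same library total in every sample, with ± for the standard deviation, and a log2 fold change has ± for its standard error. Adjusted p comes from the quasi-likelihood test of edgeR, with adjustment by Benjamini-Hochberg over all genes tested, and a gene rose or fell where it was below 0.05.

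As background, Notch receptors are cleaved when a neighbouring cell presents a ligand, and the freed intracellular part joins Rbpj on DNA to switch on Hes and Hey repressors. In the developing nervous system these repressors hold back proneural bHLH factors, which otherwise start neuronal differentiation in a cascade that leads through SoxC factors, cytoskeletal and RNA-binding proteins of young neurons, and at last synaptic genes. Gliomas driven by PDGF often resemble oligodendrocyte precursors, cells that are known to transcribe some of the same genes, Myt1 among them.

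Library totals ran from 30868828 to 48103535 counts. Rbpj averaged 37.8 ± 13.5 CPM in Rbpj-/- and 61.2 ± 6.43 CPM in control, and Notch2 averaged 7.35 ± 0.950 CPM in Notch2-/- and 12.7 ± 2.73 CPM in control, each fall with ranges that did not overlap (adjusted p = 0.0222 and 0.0200). Notch1 showed no fall in libraries labelled Notch1-/- (144 ± 45.4 CPM, against 109 ± 30.8 CPM in control) or Notch1-/-Notch2-/- (139 ± 59.5 CPM), and Notch2 did not fall in Notch1-/-Notch2-/- (11.2 ± 1.32 CPM). Trp53, labelled ko throughout, averaged 10.8 to 14.0 CPM in the 5 genotypes. Counts summed over a whole gene cannot show whether single exons were deleted, so they check the loss of these genes only in part. Control replicate 6 and Notch2-/- replicates 3 and 4 held Xist at 412, 71.3 and 1920.0 CPM together with the Y-linked gene Ddx3y at 64.0, 45.9 and 74.1 CPM, a mixture seen in no other library. Markers of other cells differed between genotypes: the summed level of 21 microglia and macrophage genes was 161 to 320 CPM in Rbpj-/-, 66.6 to 204 in Notch1-/-Notch2-/-, 76.2 to 308 in Notch1-/-, 355 to 803 in Notch2-/- and 416 to 1698 in control. That of 16 mature oligodendrocyte genes was 3950 to 10450 CPM in Rbpj-/-, 2569 to 6757 in Notch1-/-Notch2-/-, 2611 to 22290 in Notch1-/-, 3106 to 23700 in Notch2-/- and 10710 to 27980 in control. In bulk RNA, fewer cells of a type and less RNA per cell cannot be told apart.

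Sox11, Sox4, Dpysl3 and Elavl2 rose and Stmn4 fell in Rbpj-/-, Notch1-/-Notch2-/- and Notch1-/- tumours, and the calls for other members varied between these genotypes. In Rbpj-/-, 5 of 30 members rose and 2 fell, against 15.2% of all genes called in either direction (7.97% rose, 7.25% fell). In Notch1-/-Notch2-/-, 10 rose and 2 fell, with 37.1% of all genes called (18.3% rose, 18.8% fell). In Notch1-/-, 9 rose and 1 fell, with 26.7% of all genes called (13.2% rose, 13.5% fell). In Notch2-/-, none of the 30 was called by edgeR, with 0.295% of all genes called (0.128% rose, 0.166% fell). Of these 30, 4 had an unadjusted p below 0.05, DESeq2 called 1 and limma voom called 3. The median log2 fold change of the tested members was 0.20 in Rbpj-/-, 0.12 in Notch1-/-Notch2-/-, 0.48 in Notch1-/- and 0.29 in Notch2-/-, with 0.07, 0.01, 0.04 and 0.02 over all genes in the same order. As shares of the 30, the members called came to 23.3% in Rbpj-/-, 40% in Notch1-/-Notch2-/- and 33.3% in Notch1-/-. Over all genes the shares were 15.2%, 37.1% and 26.7%, near those of the members in the last 2 genotypes. In Rbpj-/- the members called ran from 3 to 9 when 1 library was left out. Whether any share differs from that of all genes was not tested. The count over all genes itself moved with single libraries, to between 1132 and 3292 of the 2378 genes called in Rbpj-/-, and to between 21 and 83 of the 46 in Notch2-/-.

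Counted without a test, members whose libraries all lay above every control library numbered 3 in Rbpj-/- (2.79% of all genes), 7 in Notch1-/-Notch2-/- (11.6%), 1 in Notch1-/- (4.16%) and 1 in Notch2-/- (0.826%). Members lying wholly below control numbered 2 (4.96%), 1 (11.1%), 1 (3.5%) and 0 (0.768%) in the same order. The genes above control were Sox11, Dpysl3 and Elavl2 in Rbpj-/-, these 3 with Sox4, Tubb2b, Igfbpl1 and Celf4 in the double mutant, Dpysl3 in Notch1-/- and Rbfox3 in Notch2-/-.

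**Figure D1:**
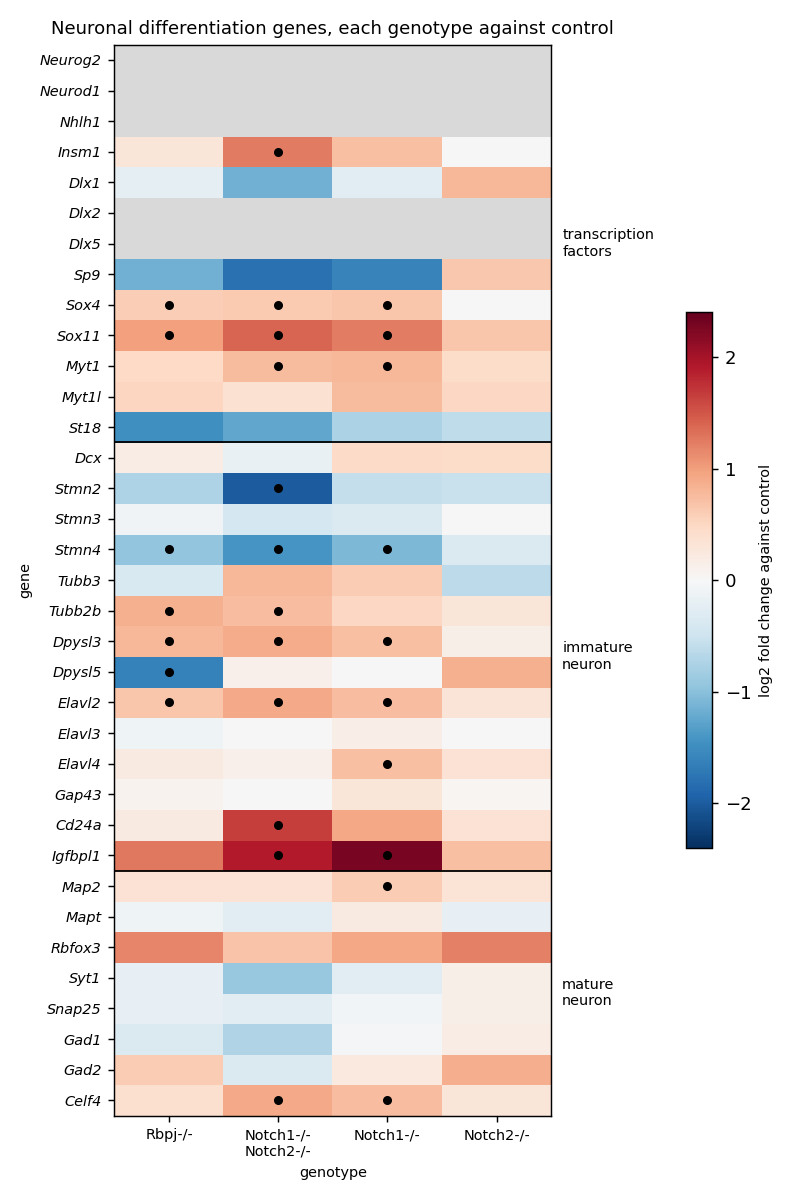
Log2 fold change of each of the 35 genes (rows, grouped by class) in each genotype against control (columns), in colour, with a dot where the adjusted p was below 0.05 and grey where the gene was not tested. The rows of Sox4, Sox11, Dpysl3, Elavl2 and Stmn4 have 3 dots each, those of Myt1, Tubb2b, Igfbpl1 and Celf4 have 2, and the Notch2-/- column has none.

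Promoter sequence is shown for 4 members that differed between genotypes and have a RefSeq window: Sox11, Sox4 and Myt1, which rose, and Dpysl5, which fell in Rbpj-/-. Each line holds the 250 bases before the start site in GRCm38.p6, 5′ to 3′ on the strand of the gene. Capitals mark TGGGAA, the core of the motif bound by Rbpj, and CACGNG or CACNAG, motifs bound by Hes and Hey repressors, on either strand.
Sox11, chr12:27342719-27342968, minus strand: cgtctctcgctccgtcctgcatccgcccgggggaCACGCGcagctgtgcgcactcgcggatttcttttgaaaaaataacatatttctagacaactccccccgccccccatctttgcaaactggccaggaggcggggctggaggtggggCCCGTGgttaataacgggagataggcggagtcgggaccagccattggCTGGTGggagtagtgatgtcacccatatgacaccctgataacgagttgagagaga
Sox4, chr13:28953700-28953949, minus strand: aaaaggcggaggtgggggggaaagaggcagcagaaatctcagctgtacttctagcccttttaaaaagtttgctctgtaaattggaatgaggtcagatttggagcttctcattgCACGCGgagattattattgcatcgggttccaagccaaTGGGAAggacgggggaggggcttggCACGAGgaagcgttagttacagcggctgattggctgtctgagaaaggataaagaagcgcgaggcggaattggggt
Myt1, chr2:181763082-181763331, plus strand: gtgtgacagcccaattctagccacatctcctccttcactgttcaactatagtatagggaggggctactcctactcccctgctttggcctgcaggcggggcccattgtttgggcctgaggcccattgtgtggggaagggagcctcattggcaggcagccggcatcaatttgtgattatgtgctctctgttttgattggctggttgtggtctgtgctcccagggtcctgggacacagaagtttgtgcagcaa
Dpysl5, chr5:30711314-30711563, plus strand: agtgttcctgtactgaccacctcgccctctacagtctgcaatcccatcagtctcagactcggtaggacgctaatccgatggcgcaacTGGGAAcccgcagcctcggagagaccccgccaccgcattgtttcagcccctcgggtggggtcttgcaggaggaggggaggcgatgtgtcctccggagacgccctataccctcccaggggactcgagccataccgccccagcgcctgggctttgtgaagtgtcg
The Sox4 window holds TGGGAA starting 100 bases before the start site, CACGCG at 137 bases and CACGAG at 75 bases, and this last place matches both repressor motifs. The Sox11 window holds CACGCG at 216 bases, CCCGTG at 102 bases and CTGGTG at 55 bases before the start site, and no TGGGAA. The Dpysl5 window holds TGGGAA at 163 bases, overlapping an E-box match (CAACTG at 167 bases), and the Myt1 window holds none of these letters. E-box matches, not marked by capitals, also lay in Sox4 (CAGCTG at 211 bases) and Sox11 (CAGCTG at 210 bases). Among the 22 members with a window of 300 bases, TGGGAA was in 13.6% against 25.5% of all 27025 windows, CACGNG in 40.9% against 27.7%, CACNAG in 45.5% against 42.6%, and the E-box CAGNTG, bound by bHLH factors, in 54.5% against 51.1%. Both strands were searched. A match is a run of letters, not a site.

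Among the transcription factors, the classic proneural genes were close to absent in every genotype. Neurog2, Neurod1 and Nhlh1, bHLH factors that start or carry on neuronal differentiation, had at most 12, 5 and 8 counts in any library, and were at 0 in 13, 15 and 17 of the 26 libraries. Neurog2 had 1, 8, 12, 6 and 2 counts in Notch1-/-Notch2-/- replicates 1 to 5, 0 in every Notch1-/- library, at most 3 in Rbpj-/-, at most 6 in Notch2-/- and at most 6 in control. Scaled to CPM, 3 of the 5 Notch1-/-Notch2-/- libraries lay above every control library (the third at 0.164 CPM, against a control maximum of 0.162 CPM). Nhlh1 had 2, 4, 2, 8 and 0 counts in Notch1-/-Notch2-/- replicates 1 to 5 and at most 2 in every other library. Dlx2 and Dlx5, homeobox factors of interneurons, had at most 16 and 8 counts. All 5 were below the filter for testing, and 3 counts in a library correspond to 0.0621 to 0.0986 CPM. In an edgeR fit of 20409 genes with no filter, Neurog2 passed as lower in Notch1-/- than in control (adjusted p = 0.0371) and Dlx2 as lower in Notch1-/-Notch2-/- than in control (adjusted p = 0.0296), where Dlx2 had 1, 1, 0, 2 and 0 counts in replicates 1 to 5, against 1 to 16 counts in control. Nhlh1 in Notch1-/-Notch2-/- did not pass (adjusted p = 0.0520), and these calls rest on a few counts.

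**Figure D2:**
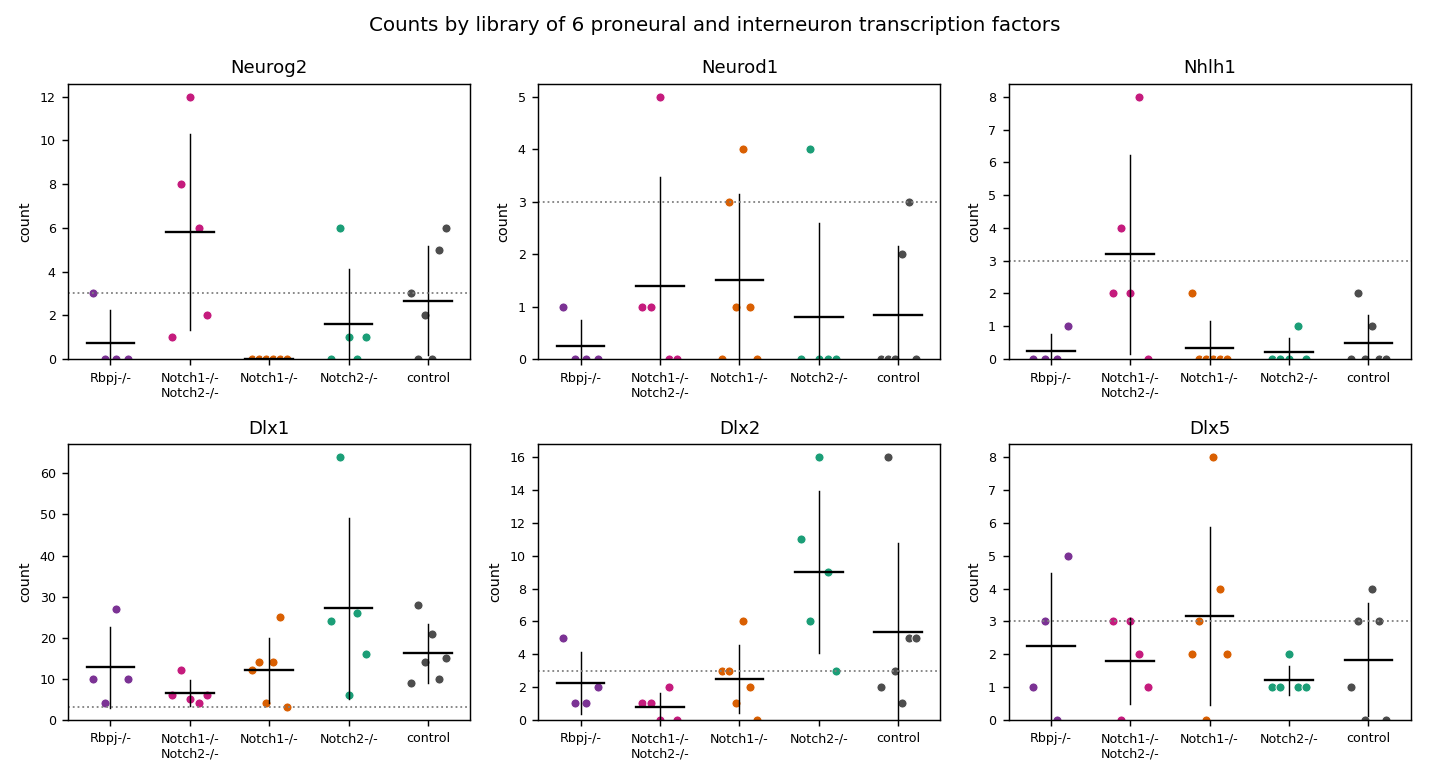
Raw counts per library (points, linear axis) of 6 scarce transcription factors in the 5 genotypes, with a horizontal bar for the mean and a vertical line for the SD. The dotted line marks 3 counts; the largest value of Neurog2 is 12 counts, in a Notch1-/-Notch2-/- library.

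The SoxC factors Sox11 and Sox4, which switch on genes of post-mitotic neurons, were abundant and higher in 3 of the 4 mutant genotypes. Sox11 (Entrez gene 20666, chr12:27334268-27342718) had 125, 168, 138 and 186 CPM in Rbpj-/- replicates 1 to 4, 188, 199, 152, 257 and 237 CPM in Notch1-/-Notch2-/- replicates 1 to 5, and 102, 196, 60.7, 117 and 146 CPM in Notch2-/- replicates 1 to 5. It ran from 99.7 through a median of 183 to 256 CPM in Notch1-/-, against 34.8, 75.2 and 119 CPM in control. All Rbpj-/- and Notch1-/-Notch2-/- libraries lay above every control library, whereas Notch1-/- and Notch2-/- overlapped with control. Sox11 rose by 0.98 ± 0.29 on the log2 scale in Rbpj-/- (adjusted p = 0.0278), by 1.40 ± 0.28 in Notch1-/-Notch2-/- (adjusted p = 6.43e-04) and by 1.23 ± 0.27 in Notch1-/- (adjusted p = 0.00287). In Notch2-/- its log2 fold change was 0.67 ± 0.28 (adjusted p = 0.285; 95% interval 0.10 to 1.25), and voom called it (adjusted p = 0.0304). The call in Rbpj-/- ended without control replicates 2, 3 or 6 or Rbpj-/- replicates 2 or 4 (adjusted p 0.0532 to 0.0823).

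Sox4 (Entrez gene 20677, chr13:28948919-28953699) had 52.8, 92.9, 52.5 and 94.9 CPM in Rbpj-/- replicates 1 to 4, 77.4, 87.8, 63.2, 79.2 and 68.6 CPM in Notch1-/-Notch2-/- replicates 1 to 5, and 49.5, 51.3, 41.5, 52.2 and 47.5 CPM in Notch2-/- replicates 1 to 5. It ran from 55.7 through 73.2 to 107 CPM in Notch1-/-, against 32.6, 47.3 and 61.5 CPM in control. The Notch1-/-Notch2-/- libraries lay above every control library, 2 of the 4 Rbpj-/- libraries lay within the control range, Notch1-/- overlapped with it, and all Notch2-/- libraries lay within it. Sox4 rose by 0.63 ± 0.18 in Notch1-/-Notch2-/- (adjusted p = 0.00909), by 0.66 ± 0.17 in Notch1-/- (adjusted p = 0.00915) and by 0.60 ± 0.19 in Rbpj-/- (adjusted p = 0.0389). In Notch2-/- the log2 fold change was 0.00 ± 0.18, with a 95% interval of -0.38 to 0.37. The Rbpj-/- call ended without control replicates 1, 2, 3 or 6 or Rbpj-/- replicates 2 or 4 (adjusted p 0.0629 to 0.157), and also under the replicate block, either other filter, the compared genotypes alone and without the 3 mixed libraries.

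Myt1, a zinc finger factor of neural progenitors, averaged 362 ± 31.2 CPM in Notch1-/-Notch2-/-, 372 ± 69.5 CPM in Notch1-/- and 213 ± 62.8 CPM in control. It rose in both mutants, by 0.76 ± 0.20 (adjusted p = 0.00449) and 0.80 ± 0.19 (adjusted p = 0.00458), although 1 control library, at 329 CPM, lay within the mutant ranges. In Rbpj-/- it averaged 296 ± 76.2 CPM and did not pass (adjusted p = 0.122), and in Notch2-/- 290.3 ± 74.5 CPM (adjusted p = 0.306). Voom called both (adjusted p = 0.0145 and 0.0352), and edgeR called Rbpj-/- without control replicate 4 (adjusted p = 0.0253). Insm1, a zinc finger factor of neuronal and endocrine precursors, had 4.55, 4.16, 5.37, 6.77 and 4.25 CPM in Notch1-/-Notch2-/- replicates 1 to 5, against 0.756, 1.87 and 4.44 CPM (lowest, median, highest) in control. It rose there by 1.25 ± 0.41 (adjusted p = 0.0202), a call that ended without Notch1-/-Notch2-/- replicate 4 (adjusted p = 0.0546). Myt1l, the neuronal relative of Myt1, had log2 fold changes of 0.37 to 0.76 in the 4 genotypes and was not called by edgeR, while voom called it in Notch1-/- (adjusted p = 0.0178). St18, another relative, was lower on average in all 4 mutants, at 9.85 ± 9.25, 11.5 ± 4.88, 16.2 ± 20.5 and 17.9 ± 11.6 CPM in Rbpj-/-, Notch1-/-Notch2-/-, Notch1-/- and Notch2-/-, against 27.4 ± 9.06 CPM in control. It was not called by edgeR with all libraries (lowest adjusted p = 0.116). Voom called it lower in Rbpj-/- (adjusted p = 0.0202), Notch1-/-Notch2-/- (0.0138) and Notch1-/- (0.00184), and edgeR did so in Notch1-/- without replicate 2 (-1.78, adjusted p = 0.0104), in Rbpj-/- without replicate 3 (-2.35, adjusted p = 0.0289) and in Notch1-/-Notch2-/- with only the compared genotypes fitted (adjusted p = 0.00921). Its highest level, 57.6 CPM, was in Notch1-/- replicate 2, the library of that genotype with the highest summed mature oligodendrocyte genes (22290 CPM, against at most 27980 CPM in control). The interneuron factors Dlx1 and Sp9 were scarce, with control means of 0.376 ± 0.149 and 0.247 ± 0.0978 CPM, and neither was called in any genotype, except that Dlx1 passed as lower in Notch1-/-Notch2-/- with only the compared genotypes fitted (adjusted p = 0.0412).

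Of the 14 genes of immature neurons, 3 rose and 2 fell in Rbpj-/- (15.2% of all genes called), 5 rose and 2 fell in Notch1-/-Notch2-/- (37.1%), and 4 rose and 1 fell in Notch1-/- (26.7%). Dpysl3 (Entrez gene 22240, chr18:43320979-43438286), a collapsin response mediator protein of growing axons, had 1085, 1614, 1315 and 1519 CPM in Rbpj-/- replicates 1 to 4, 1400.0, 1466, 1424, 1732 and 1392 CPM in Notch1-/-Notch2-/- replicates 1 to 5, and 650.5, 954, 837, 1113 and 851 CPM in Notch2-/- replicates 1 to 5. It ran from 1041 through 1300.0 to 1624 CPM in Notch1-/-, against 700.0, 758 and 1028 CPM in control. Every library of Rbpj-/-, Notch1-/-Notch2-/- and Notch1-/- was above every control library, and Notch2-/- overlapped with control. The log2 fold changes were 0.80 ± 0.15 in Rbpj-/- (adjusted p = 0.00317), 0.90 ± 0.15 in Notch1-/-Notch2-/- (adjusted p = 1.03e-04), 0.72 ± 0.14 in Notch1-/- (adjusted p = 0.00124) and 0.14 ± 0.14 in Notch2-/- (adjusted p = 0.632). Of the members that rose in all 3 genotypes, Dpysl3 was the only one whose 3 calls held when each library was left out in turn.

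Elavl2 (Entrez gene 15569, chr4:91211533-91400108), an RNA-binding protein of young neurons, had 28.7, 34.0, 36.6 and 33.8 CPM in Rbpj-/- replicates 1 to 4, 32.3, 35.9, 34.4, 47.4 and 47.9 CPM in Notch1-/-Notch2-/- replicates 1 to 5, and 24.7, 39.4, 14.1, 21.6 and 31.0 CPM in Notch2-/- replicates 1 to 5. It ran from 27.4 through 35.5 to 45.6 CPM in Notch1-/-, against 15.0, 20.3 and 28.2 CPM in control. The first 2 genotypes lay wholly above control, Notch1-/- overlapped with it in 1 library, and Notch2-/- spanned the control range. Elavl2 rose by 0.66 ± 0.21 in Rbpj-/- (adjusted p = 0.0374), 0.91 ± 0.20 in Notch1-/-Notch2-/- (adjusted p = 0.00137) and 0.74 ± 0.19 in Notch1-/- (adjusted p = 0.00774). The Rbpj-/- call ended without control replicates 2, 3, 5 or 6 or Rbpj-/- replicates 2, 3 or 4 (adjusted p 0.0560 to 0.0822), and also with DESeq2 size factors, either other filter and the compared genotypes alone. Among its paralogs, Elavl3 was not called (log2 fold changes of -0.10 to 0.16 against control), and Elavl4 rose in Notch1-/-, at 134 ± 24.2 CPM against 81.9 ± 23.0 CPM in control (0.72 ± 0.24, adjusted p = 0.0297). That call ended without control replicates 2 or 3 or Notch1-/- replicates 1 or 3 (adjusted p 0.0561 to 0.0746), and whether the paralogs differ from each other was not tested.

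**Figure D3:**
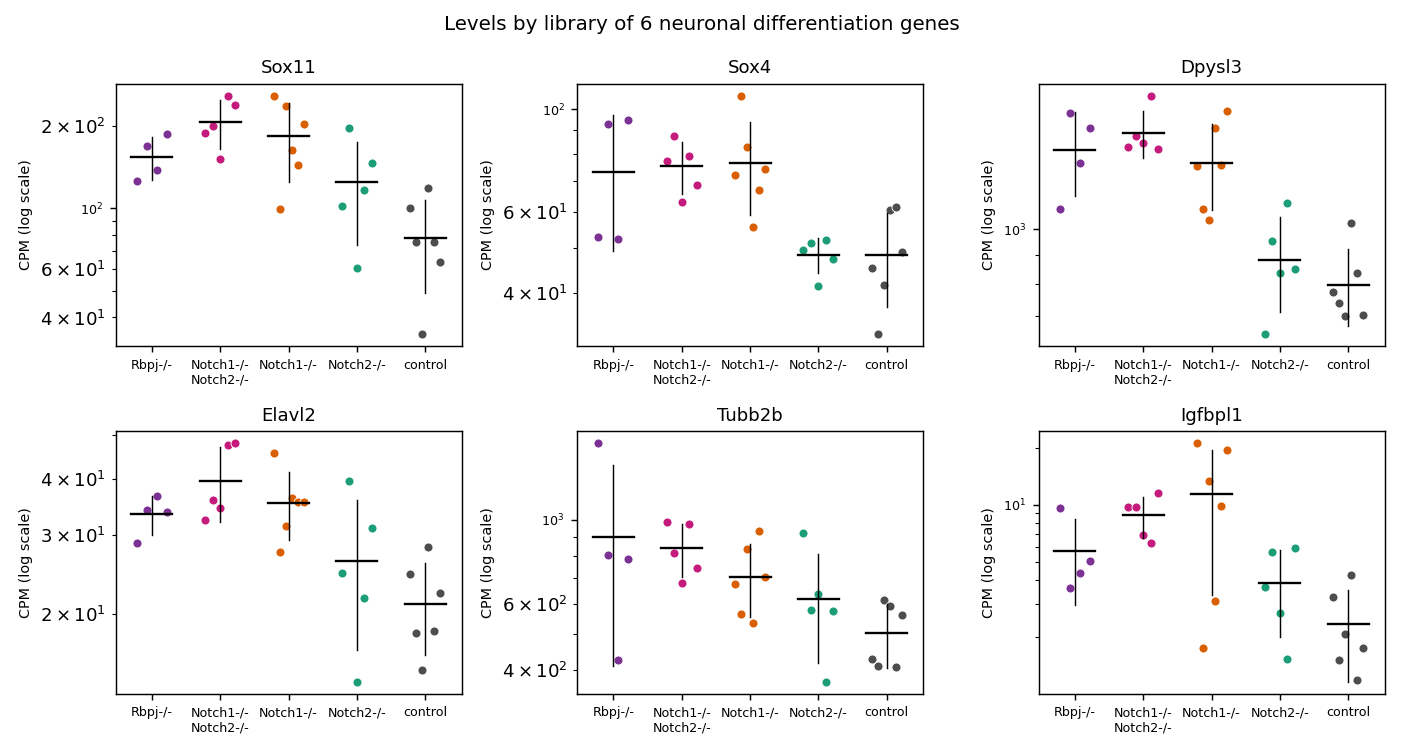
CPM per library (points, log axis) of Sox11, Sox4, Dpysl3, Elavl2, Tubb2b and Igfbpl1 in the 5 genotypes, with a horizontal bar for the mean and a vertical line for the SD. The Notch1-/-Notch2-/- libraries lie above every control library in all 6 panels.

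Tubb2b, a beta-tubulin of newborn neurons and the most abundant member per length, had 1590.0, 806, 427 and 787 CPM in Rbpj-/- replicates 1 to 4 and 983, 815, 682, 975 and 748 CPM in Notch1-/-Notch2-/- replicates 1 to 5, against 408, 495 and 614 CPM in control. The Notch1-/-Notch2-/- libraries all lay above control, and the Rbpj-/- mean rested largely on replicate 1. Tubb2b rose by 0.74 ± 0.24 in Notch1-/-Notch2-/- (adjusted p = 0.0209; 0.0517 without Notch1-/-Notch2-/- replicate 4) and by 0.85 ± 0.26 in Rbpj-/- (adjusted p = 0.0305). Without Rbpj-/- replicate 1 the Rbpj-/- log2 fold change was 0.42 (adjusted p = 0.226), and the call also ended without Rbpj-/- replicate 2 or control replicates 1, 2 or 5 (adjusted p 0.0540 to 0.0702). Igfbpl1 (Entrez gene 75426, chr4:45809507-45826827), a protein of newborn neurons related to IGF-binding proteins, had 9.71, 9.72, 6.91, 6.31 and 11.5 CPM in Notch1-/-Notch2-/- replicates 1 to 5 and ran from 1.75 through 11.6 to 21.1 CPM in Notch1-/-, against 1.20, 1.92 and 4.27 CPM in control. Notch1-/- libraries were scattered, with 4 above the control range and 2 within it, whereas the double mutant lay wholly above. It rose by 1.91 ± 0.49 in Notch1-/-Notch2-/- (adjusted p = 0.00434) and by 2.28 ± 0.48 in Notch1-/- (adjusted p = 0.00220), and in Rbpj-/-, at 5.68 ± 2.72 CPM, it did not pass (1.27 ± 0.51, adjusted p = 0.0881). The locus overlaps Stra6l, so counts of Igfbpl1 are uncertain. Cd24a, a surface glycoprotein of neuroblasts, had 6.00, 28.3, 9.00, 23.9 and 11.4 CPM in Notch1-/-Notch2-/- replicates 1 to 5, against 2.92, 4.65 and 7.53 CPM in control. It rose there by 1.67 ± 0.47 (adjusted p = 0.00819), with 1 mutant library inside the control range.

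Other members of the class fell. Stmn4 (Entrez gene 56471, chr14:66344210-66361680), a stathmin that binds tubulin, had 91.0, 79.7, 81.4 and 61.4 CPM in Rbpj-/- replicates 1 to 4, 63.9, 41.2, 78.9, 38.9 and 58.7 CPM in Notch1-/-Notch2-/- replicates 1 to 5, and 111, 63.0, 199, 114 and 111 CPM in Notch2-/- replicates 1 to 5. It ran from 47.4 through 70.7 to 96.1 CPM in Notch1-/-, against 97.2, 159 and 182 CPM in control. No library of Rbpj-/-, Notch1-/-Notch2-/- or Notch1-/- reached the control range, and Notch2-/- overlapped with it. Stmn4 fell by 0.95 ± 0.26 on the log2 scale in Rbpj-/- (adjusted p = 0.0178; 0.0631 without Rbpj-/- replicate 4), by 1.42 ± 0.24 in Notch1-/-Notch2-/- (adjusted p = 1.55e-04) and by 1.09 ± 0.23 in Notch1-/- (adjusted p = 0.00198). The summed mature oligodendrocyte genes were lower in the same genotypes, and so were the microglia and macrophage genes. With the oligodendrocyte score as a covariate the log2 fold change of Stmn4 was -0.24, -0.52 and -0.40 in that order (adjusted p 0.398 to 0.797). With the microglia and macrophage score instead it was -1.395, -2.025 and -1.697 (adjusted p 0.148, 0.0225 and 0.171). The part of these cells in the fall of Stmn4 was not tested. Stmn2, a stathmin of growing axons, was at 0.523, 0.212, 1.80, 0.137 and 0.128 CPM in Notch1-/-Notch2-/- replicates 1 to 5, against 0.555, 2.38 and 3.84 CPM in control. It fell there by 2.01 ± 0.63 (adjusted p = 0.0158), and replicate 3 alone was inside the control range. Stmn3, the remaining stathmin of the set, had log2 fold changes of -0.43 to 0.00 against control and was not called by edgeR, except as lower in Notch1-/-Notch2-/- with only the compared genotypes fitted (adjusted p = 0.0208).

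Dpysl5 (Entrez gene 65254, chr5:30711564-30799369), another collapsin response mediator, was lowest in Rbpj-/-. It had 1.61, 1.91, 1.72 and 1.02 CPM in Rbpj-/- replicates 1 to 4, 6.73, 4.13, 7.25, 2.68 and 5.49 CPM in Notch1-/-Notch2-/- replicates 1 to 5, and 9.61, 6.58, 10.2, 10.5 and 6.62 CPM in Notch2-/- replicates 1 to 5. It ran from 3.95 through 4.81 to 5.91 CPM in Notch1-/-, against 3.08, 5.04 and 6.73 CPM in control. All 4 Rbpj-/- libraries were below every other library of the series. Dpysl5 fell by 1.62 ± 0.28 in Rbpj-/- against control (adjusted p = 0.00180) and by 1.75 ± 0.29 in Rbpj-/- against Notch1-/-Notch2-/- (adjusted p = 0.00430), and both calls held without each library in turn. Its log2 fold change against control was 0.13 ± 0.25 in Notch1-/-Notch2-/- and 0.02 ± 0.24 in Notch1-/-. In Notch2-/- it was 0.86 ± 0.25 (adjusted p = 0.152), with DESeq2 giving an adjusted p of 0.0343 and voom 0.0452. The gene overlaps a predicted long non-coding RNA, Gm46907, and the sources used here do not say how reads were assigned by strand.

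**Figure D4:**
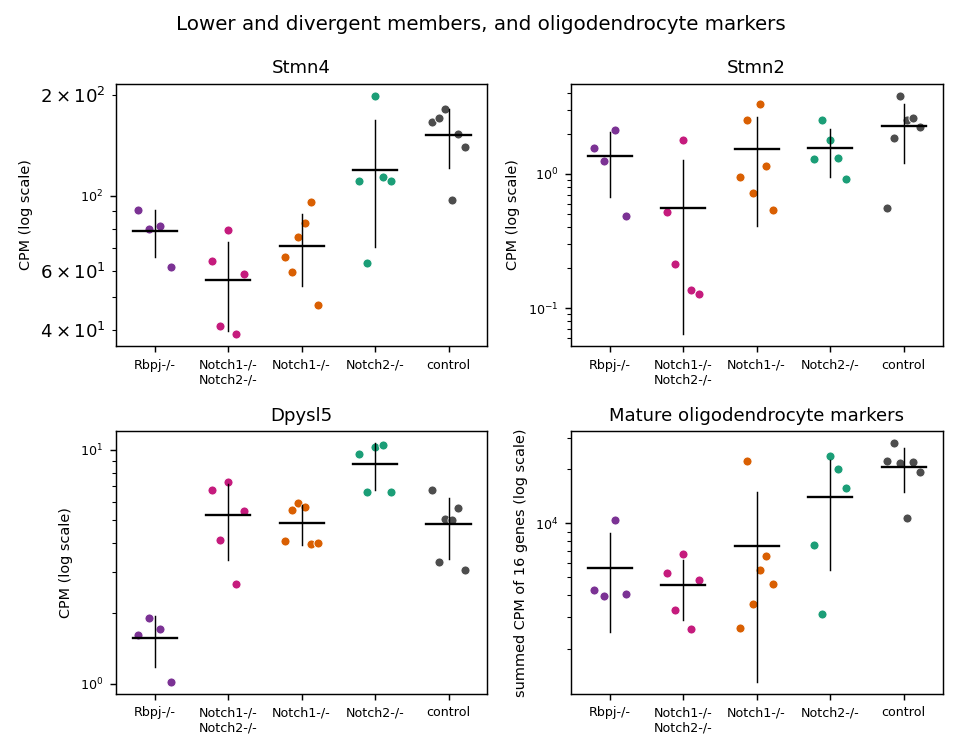
CPM per library (points, log axis) of Stmn4, Stmn2 and Dpysl5 in the 5 genotypes, and the summed CPM of 16 mature oligodendrocyte marker genes, with a horizontal bar for the mean and a vertical line for the SD. The 4 Rbpj-/- libraries have the lowest Dpysl5 levels, 1.02 to 1.91 CPM, and Stmn4 is below control in the first 3 genotypes.

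The remaining immature neuron genes were not called against control by edgeR with all libraries. Dcx, the microtubule protein of migrating neurons, averaged 234 ± 93.9, 181 ± 73.7, 283 ± 51.1 and 280.3 ± 111 CPM in Rbpj-/-, Notch1-/-Notch2-/-, Notch1-/- and Notch2-/-, against 206 ± 75.0 CPM in control. Gap43, a growth cone protein, had log2 fold changes of 0.00 to 0.28 against control, and was called in Notch1-/- by voom (adjusted p = 0.0448) and by edgeR without Notch1-/- replicate 2 (adjusted p = 0.0427). Tubb3, the beta-tubulin often used to stain neurons, ranged from 3.45 to 89.2 CPM over all libraries, with its top value again in Notch1-/- replicate 2.

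Among the 8 genes of mature neurons, edgeR called none in Rbpj-/-. There 1, Rbfox3, had an unadjusted p below 0.05 and was called by DESeq2, and voom called 0. Celf4 alone rose in Notch1-/-Notch2-/-, and Celf4 and Map2 rose in Notch1-/-. The shares of the class called were 0%, 12.5% and 25% in this order, with 15.2%, 37.1% and 26.7% of all genes. These shares rest on 0, 1 and 2 of 8 genes, the last is near that of all genes, and no difference was tested. Celf4, an RNA-binding regulator of neuronal transcripts, had 14.1, 13.1, 13.3, 12.2 and 14.0 CPM in Notch1-/-Notch2-/- replicates 1 to 5 and ran from 8.56 through 10.9 to 17.1 CPM in Notch1-/-, against 4.87, 7.31 and 8.87 CPM in control. The double mutant lay wholly above control, and 1 Notch1-/- library was within its range. Celf4 rose by 0.91 ± 0.25 in Notch1-/-Notch2-/- (adjusted p = 0.00811) and by 0.74 ± 0.25 in Notch1-/- (adjusted p = 0.0294), where the call ended without control replicates 1, 3 or 6 or Notch1-/- replicates 1 or 4 (adjusted p 0.0523 to 0.0831). Map2, a dendritic microtubule protein, averaged 1073 ± 94.3 CPM in Notch1-/- and 706 ± 201 CPM in control (0.60 ± 0.22, adjusted p = 0.0474), a call that ended when any of 10 of the 12 libraries was left out (adjusted p 0.0514 to 0.115) and held only without control replicate 4 or Notch1-/- replicate 2.

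Rbfox3, the neuronal nuclear antigen NeuN, was scarce and higher on average in every mutant. It had 1.64, 2.76, 1.85 and 1.11 CPM in Rbpj-/- replicates 1 to 4 and 2.45, 1.65, 2.20, 1.79 and 1.28 CPM in Notch2-/- replicates 1 to 5, against 0.443, 0.895 and 1.15 CPM in control. All Notch2-/- libraries exceeded the control libraries and Rbpj-/- overlapped in 1 library, yet the adjusted p was 0.202 in Notch2-/- (1.21 ± 0.40) and 0.0574 in Rbpj-/- (1.18 ± 0.42). In Notch1-/-, where edgeR gave 0.0711, DESeq2 (adjusted p = 0.0494) and voom (adjusted p = 0.0280) called it, as did edgeR without Notch1-/- replicate 2 (adjusted p = 0.0323). Mapt, the tau protein, had means of 264 ± 40.6 to 370 ± 194 CPM in the mutants, against 317 ± 23.9 CPM in control, and Notch1-/- replicate 2 held 755 CPM. Snap25 and Syt1, parts of the release machinery of synapses, had log2 fold changes of -0.28 to 0.14 and -0.91 to 0.13 against control. Syt1 had 3.27, 1.96, 8.16, 2.43 and 2.97 CPM in Notch1-/-Notch2-/- replicates 1 to 5, against 6.27, 6.98 and 8.50 CPM in control, and did not pass (adjusted p = 0.0644). It was called lower without replicate 3 of that genotype (adjusted p = 0.00538), and by DESeq2 (adjusted p = 0.0373) and voom (adjusted p = 0.0195). Gad1 and Gad2, which make the transmitter GABA, were not called by edgeR with all libraries (lowest adjusted p = 0.117), and Gad1 was called lower in Notch1-/-Notch2-/- by voom (adjusted p = 0.0446) and by edgeR without replicate 3 (-1.07, adjusted p = 0.0275).

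**Figure D5:**
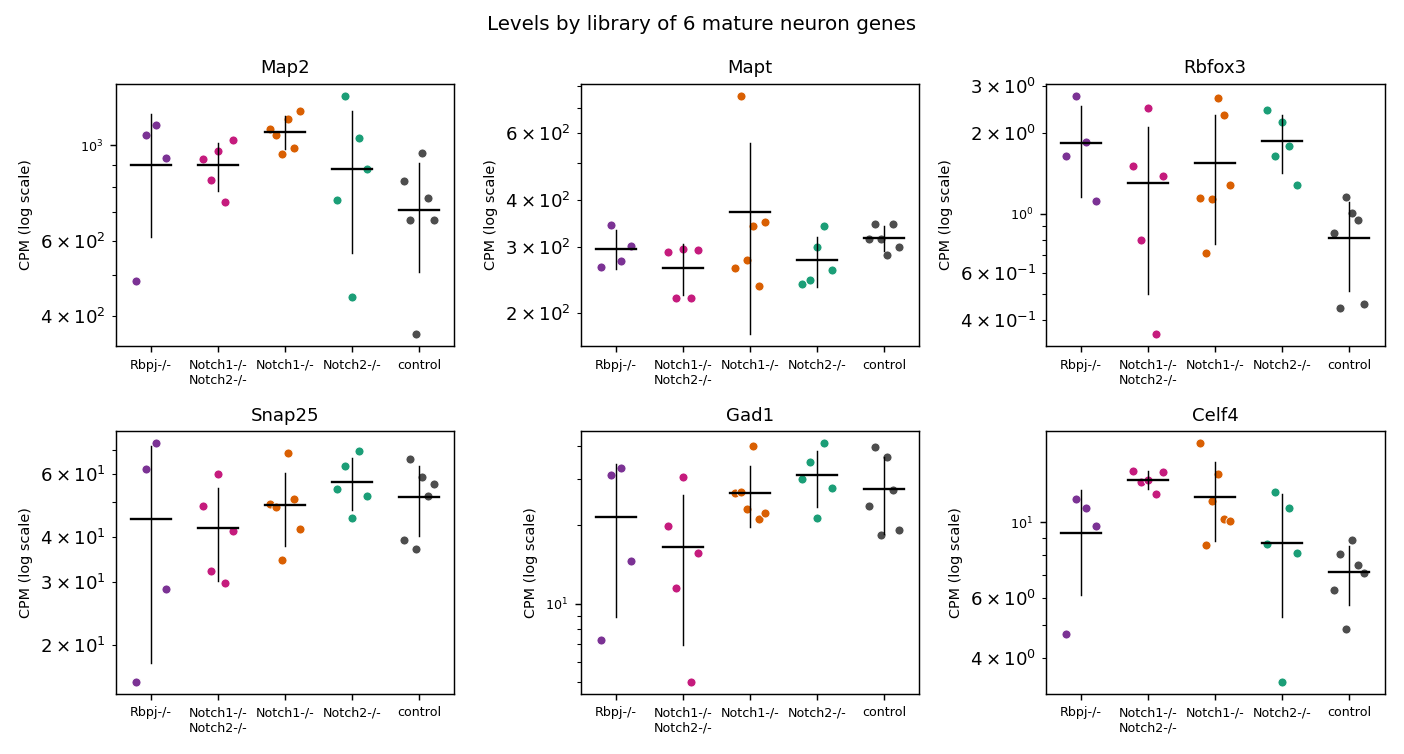
CPM per library (points, log axis) of Map2, Mapt, Rbfox3, Snap25, Gad1 and Celf4 in the 5 genotypes, with a horizontal bar for the mean and a vertical line for the SD. Celf4 in Notch1-/-Notch2-/- (12.2 to 14.1 CPM) lies above every control library, and the other panels overlap in that genotype.

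Levels within the control tumours, set per kilobase of the deposited gene length, spanned several orders of magnitude. Tubb2b stood first at 261 ± 50.1 CPM per kilobase, followed by Gap43 at 161 ± 33.6, Dpysl3 at 131 ± 20.4 and Stmn4 at 105 ± 20.9. Gap43 and Dpysl3, and Dpysl3 and Stmn4, differed by less than the sum of their standard deviations. Stmn3, Map2, Mapt and Myt1 came next, at 83.6 ± 9.74, 70.5 ± 20.0, 58.9 ± 4.43 and 33.4 ± 9.82 CPM per kilobase. Sox4 stood at 16.4 ± 3.79 and Sox11 at 9.24 ± 3.45. The last 9 places were taken by Rbfox3, Gad2, Dlx1, Sp9, Dlx2, Neurog2, Dlx5, Neurod1 and Nhlh1, all below 0.17 CPM per kilobase. Cytoskeletal genes of young neurons were present in control tumours at levels far above the bHLH factors.

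Rbpj-/- and Notch1-/-Notch2-/- tumours differed in 1 member, Dpysl5, which fell in Rbpj-/-, with 0.794% of all genes called (0.435% rose, 0.359% fell). Ranges of the genotypes did not overlap for 0 members higher in Rbpj-/- (1.93% of all genes) and 3 lower (2.49%). Cd24a had the next smallest p, with a log2 fold change of -1.45 ± 0.53 (unadjusted p = 0.0120, adjusted p = 0.264), and the 2 others without overlap, Insm1 and Celf4, were not called (adjusted p = 0.407 and 0.461). Notch1-/- and Notch2-/- tumours differed in 2 members, with 3.09% of all genes called (0.839% rose, 2.25% fell). Their ranges did not overlap for 1 member higher in Notch1-/- (1.35% of all genes) and 1 lower (2.4%). Sox4, at 76.5 ± 17.5 CPM in Notch1-/- and 48.4 ± 4.24 CPM in Notch2-/-, was higher by 0.66 ± 0.18 (adjusted p = 0.0484), and its ranges did not overlap. Dpysl3, at 1310.0 ± 229 CPM in Notch1-/- and 881 ± 170 CPM in Notch2-/-, was higher by 0.57 ± 0.15 (adjusted p = 0.0300). Neither was called without the 3 libraries that held both Xist and Ddx3y (0 members called). The Sox4 call held only without Notch1-/- replicates 4 or 5, and that of Dpysl3 ended without Notch1-/- replicates 1, 4 or 6 or Notch2-/- replicates 1, 3 or 5 (adjusted p 0.0569 to 0.0991). Dpysl5, lower by 0.84 ± 0.25 in Notch1-/- with no overlap of ranges, did not pass (adjusted p = 0.0631).

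Whether the loss of both receptors together differs from the sum of the single losses was tested as an interaction on the log2 scale. None of the 30 members was called by edgeR (0.0768% of all genes were, 0.0192% upward and 0.0576% downward), 5 had an unadjusted p below 0.05, DESeq2 called none and voom called 2, Dcx and Elavl4. The smallest adjusted p was that of Elavl4 (-0.95 ± 0.35, adjusted p = 0.287), with a 95% interval of -1.67 to -0.22. For Sox11 the interaction was -0.50 ± 0.40, with a 95% interval of -1.31 to 0.32, and for Dpysl3 0.03 ± 0.21, with an interval of -0.39 to 0.46. The interaction was negative in 24 of the 30 members, including all 8 of the mature class, and in 8402 of the 15617 genes tested.

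Other genes of the neuronal programme were taken from longer lists. Of 27 further transcription regulators tested, 3 rose in Rbpj-/-, 7 rose in Notch1-/-Notch2-/-, and 7 rose and 2 fell in Notch1-/-. As shares called these are 11.1%, 25.9% and 33.3%, against 15.2%, 37.1% and 26.7% of all genes. In Notch2-/- the smallest adjusted p among them was that of Zeb1 (0.164). Sox12, the third SoxC factor, rose in Rbpj-/- (0.70 ± 0.16, adjusted p = 0.00930), Notch1-/-Notch2-/- (0.47 ± 0.16, adjusted p = 0.0209) and Notch1-/- (0.47 ± 0.15, adjusted p = 0.0252). Rcor2, a corepressor partner of neural progenitors, rose in Rbpj-/- (1.46 ± 0.38, adjusted p = 0.0140) and Notch1-/-Notch2-/- (1.78 ± 0.36, adjusted p = 7.53e-04). Bcl11a, a zinc finger factor of cortical neurons, rose in Notch1-/-Notch2-/- (1.45 ± 0.31, adjusted p = 0.00114) and Notch1-/- (1.02 ± 0.30, adjusted p = 0.0156) and was lower in Rbpj-/- than in Notch1-/-Notch2-/- (-1.81 ± 0.36, adjusted p = 0.0197).

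Of 34 further genes of immature neurons, 4 rose and 2 fell in Rbpj-/-, 9 rose and 3 fell in Notch1-/-Notch2-/- and 8 rose and 3 fell in Notch1-/-, or 17.6%, 35.3% and 32.4% called, near the 15.2%, 37.1% and 26.7% of all genes. Nova1, a neuronal splicing regulator, had the smallest adjusted p in the double mutant, at 586 ± 90.8 CPM in Notch1-/-Notch2-/- against 209 ± 61.1 CPM in control (1.49 ± 0.24, adjusted p = 9.50e-05). Cntn2, an axonal adhesion protein that is also found at myelin, fell in Rbpj-/- (-2.58 ± 0.61, adjusted p = 0.00916), Notch1-/-Notch2-/- (-3.21 ± 0.57, adjusted p = 2.46e-04) and Notch1-/- (-1.68 ± 0.50, adjusted p = 0.0177), as did Robo1, an axon guidance receptor. Of 29 further genes of mature neurons, 2 rose and 2 fell in Rbpj-/-, 3 rose and 4 fell in Notch1-/-Notch2-/-, and 6 rose and 3 fell in Notch1-/-, or 13.8%, 24.1% and 31% called, near or below the same shares of all genes. Syt4, a synaptotagmin of dense-core vesicles, rose to 142 ± 98.9 CPM in Notch1-/-Notch2-/-, against 16.2 ± 6.18 CPM in control (3.13 ± 0.61, adjusted p = 5.00e-04). Gria1, an AMPA receptor subunit, fell to 2.63 ± 1.91 CPM in Notch1-/-Notch2-/-, against 18.8 ± 4.89 CPM in control (-2.83 ± 0.47, adjusted p = 1.27e-04), and also fell in Rbpj-/- and Notch1-/-.

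Several genes fell on a list of repressors of neuronal genes, which also held the Notch feedback inhibitor Nrarp. Of these 12, 2 fell and 1 rose in Rbpj-/-, and 5 fell and 2 rose in both Notch1-/-Notch2-/- and Notch1-/-. As shares called these are 25%, 58.3% and 58.3%, against 15.2%, 37.1% and 26.7% of all genes. In Notch2-/- the smallest adjusted p was that of Hey2 (0.320). Hes5, a bHLH repressor and direct Notch target, averaged 1.31 ± 0.654 CPM in Rbpj-/-, 0.628 ± 0.327 CPM in Notch1-/-Notch2-/-, 0.514 ± 0.149 CPM in Notch1-/- and 6.44 ± 2.45 CPM in Notch2-/-, against 4.09 ± 2.05 CPM in control. It fell by 1.64 ± 0.43 (adjusted p = 0.0148), 2.69 ± 0.41 (adjusted p = 6.91e-05) and 2.99 ± 0.39 (adjusted p = 5.85e-05) in the first 3. Id4, which sequesters bHLH activators, fell in the same 3, by 2.17 ± 0.37, 2.61 ± 0.34 and 1.95 ± 0.31. Hes1 and Hey1, further bHLH repressors, and Nrarp, a feedback inhibitor of Notch, fell in Notch1-/-Notch2-/- and Notch1-/- and did not pass in Rbpj-/-. Nrarp averaged 17.6 ± 5.22 CPM in Rbpj-/- and 5.61 ± 1.77 CPM in Notch1-/-Notch2-/- (1.64 ± 0.35, adjusted p = 0.0241), and Hey1 was likewise higher in Rbpj-/- than in the double mutant (0.95 ± 0.21, adjusted p = 0.0354). Hes5, Nrarp, Id4, Hes1 and Hey1 were also lower in Notch1-/- than in Notch2-/- (for Hes5 the log2 fold change was -3.64, adjusted p = 1.27e-05), whereas Bcl11b, a zinc finger factor of neurons, was higher there (1.00 ± 0.22, adjusted p = 0.0127). Rest, the silencer of neuronal genes outside neurons, and its partner Rcor1 were the 2 that rose in Notch1-/-Notch2-/- and Notch1-/-.

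Markers of other cells moved with these calls, and their part in them was not tested. Of 21 microglia and macrophage genes, 17 fell in Rbpj-/-, 19 in Notch1-/-Notch2-/- and 20 in Notch1-/-. Of 16 mature oligodendrocyte genes, 10, 14 and 11 fell in the same order, and of 15 endothelial genes 10, 13 and 13. Of 20 astrocyte genes 8, 13 and 11 fell, and of 18 oligodendrocyte precursor genes 1 rose in each, with 0, 3 and 1 falling. Of 18 cell cycle genes, 6, 10 and 3 rose. Over all genes, 7.25%, 18.8% and 13.5% fell and 7.97%, 18.3% and 13.2% rose in the same order. None of these markers was at 0 in any library. With the microglia and macrophage score, the mean log2 CPM of its list, as a covariate, the members called against control were 0 in Rbpj-/-, 1 in Notch1-/-Notch2-/- (Stmn4) and 0 in Notch1-/-, and over all genes 8, 384 and 10 were called. In Notch1-/-Notch2-/- the log2 fold change with it was 0.86 for Dpysl3, 0.85 for Sox4, 0.66 for Celf4 and 0.13 for Insm1, against 0.90, 0.63, 0.91 and 1.25 without it. With the mature oligodendrocyte score as a covariate no member was called in these 3 genotypes. In Notch1-/-Notch2-/- the log2 fold change was then 0.19 for Sox11, 0.14 for Elavl2, 0.23 for Igfbpl1, 0.51 for Sox4 and 0.69 for Dpysl3. Insm1 and Celf4 were at 1.54 and 0.24 with this score. With the microglia and macrophage score, Sox11, Elavl2 and Igfbpl1 were at 1.03, 0.61 and 1.35, against 1.40, 0.91 and 1.91 without a score. The 2 scores thus moved single genes differently. The microglia and macrophage score was 2.255 to 2.938 in Rbpj-/-, 0.506 to 2.612 in Notch1-/-Notch2-/- and 0.697 to 2.879 in Notch1-/-. In control it was 3.573 to 5.482, with no overlap. The oligodendrocyte score was 5.904 to 7.219, 5.026 to 6.61 and 5.421 to 8.335 in the same order. In control it was 7.583 to 8.872, overlapping only with Notch1-/-. Against control, these fits therefore largely cannot separate a score from genotype. Dpysl5 in Rbpj-/- against Notch1-/-Notch2-/- stayed called under both scores, at -1.69 and -1.86 (adjusted p = 0.00996 and 0.00188).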

How the data were processed

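Per the labels' protocols, early-stage gliomas were micro-dissected under GFP fluorescence, GFP-positive cells were sorted, total RNA was extracted with Trizol, and stranded TruSeq libraries were sequenced on a NextSeq 500. The submitters' processing notes name the aligner STAR and the genome build mm10. The sources used here give no version of STAR, no counting tool and no strand setting. The authors deposited raw counts per gene, with Entrez identifiers and a gene length, for 26 libraries. All columns of counts were used.

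Identifiers were named through RefSeq (GRCm38.p6), which matched 24374 of 24454 and left 80 unnamed. Counts were scaled by TMM and tested with edgeR 4.0.16 (quasi-likelihood F-test, R 4.3.3) in 1 fit of all 5 genotypes, after edgeR's expression filter by genotype left 15617 genes. P-values were adjusted by Benjamini-Hochberg over these, with a threshold of 0.05. Standard errors were taken as the fold change divided by the square root of F. Log2 CPM used a prior count of 2. Interaction means the double mutant against control minus the 2 single mutants against control. Totals per library were 30868828 to 48103535 counts, so counting error is small except for the scarce factors, and the limit of 3 counts covers counting error only. Of 56 pairs of libraries within genotypes 0 were identical.

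Alternatives were DESeq2 1.42.0 size factors and Wald test, limma 3.58.1 voom, other filters, a replicate block, the compared genotypes alone, a microglia and macrophage score, leaving out the mixed libraries, and each library left out in turn. A mature oligodendrocyte score was added after seeing the data. The members and all gene lists were chosen with earlier results of these data known. Genes named are all members, and from each other list, genes among the 4 with the smallest adjusted p of those that passed in a comparison; Rest and Hey2, and Zeb1 in Notch2-/-, were chosen after their values were seen. Of the members, 16 overlap another RefSeq gene, and their counts are uncertain where strand was ignored.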

Additional observations from a re-analysis of the deposited data

Results flagged for a closer look

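Among 150 sets of libraries (1 gene in 1 genotype), 11 held a library far from the others by Dixon's criterion. Chance gives about 1 in 20 where values are normally distributed. The criterion was applied to CPM without a log, and all 11 flagged values were the highest of their set, so that rate may not hold here. In Notch1-/- replicate 2, St18 was at 57.6 CPM with the next library at 12.0, Tubb3 at 89.2 with the next at 27.8, and Mapt at 755 with the next at 349. In Notch1-/-Notch2-/- replicate 3, Stmn2 was at 1.80 CPM with the next at 0.523, and Syt1 at 8.16 with the next at 3.27. In Notch1-/-Notch2-/- replicate 2, Dlx1 was at 0.318 CPM with the next at 0.154. In Notch1-/-Notch2-/- replicate 4, Dpysl3 was at 1730.0 CPM with the next at 1470.0. In Notch1-/- replicate 1, Cd24a was at 26.4 CPM with the next at 9.68, and in Notch1-/- replicate 4, Gad1 was at 40.1 with the next at 26.8. In control replicate 6, Gap43 was at 293 CPM with the next at 208, and in control replicate 2, Dlx2 was at 0.337 with the next at 0.135.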

How the results depend on the processing

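No member changed direction among those called. Counts of the 30 members called moved as follows. In Rbpj-/- against control (7), 4 were called with a filter of at least 10 CPM in 4 libraries, 4 with only the compared genotypes fitted, and 0 with either cell score. In Notch1-/-Notch2-/- against control (12), 1 was called with the microglia and macrophage score and 0 with the oligodendrocyte score. In Notch1-/- against control (10), voom called 16, and either score left 0. In Notch2-/- against control (0), DESeq2 called 1 and voom 3. In Rbpj-/- against Notch1-/-Notch2-/- (1), 0 were called with the 10 CPM filter, which removes Dpysl5, and 0 with only the compared genotypes. In Notch1-/- against Notch2-/- (2), no filter and the 10 CPM filter gave 1 each, DESeq2 and voom 5 each, and only the compared genotypes, either score, or the absence of the 3 mixed libraries gave 0. For the interaction (0), voom called 2. The cause was not tested.

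Leaving out 1 library gave 3 to 9 calls in Rbpj-/- (3 without control replicate 2 or Rbpj-/- replicates 2 or 4, 4 without control replicates 3 or 6), 10 to 14 in Notch1-/-Notch2-/-, 7 to 14 in Notch1-/-, 0 in Notch2-/-, 1 in Rbpj-/- against Notch1-/-Notch2-/-, 0 to 3 in Notch1-/- against Notch2-/- (0 without Notch1-/- replicates 1 or 6 or Notch2-/- replicates 1, 3 or 5, and 1 without Notch1-/- replicate 3 or Notch2-/- replicate 4) and 0 for the interaction.

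Libraries share replicate numbers across genotypes, and no label says whether these pair them. Correlations of deviations between same-numbered libraries ran from -0.342 to 0.627. Differently numbered libraries were not compared, so these values cannot show whether a pairing exists. With the replicate block the members called were 5, 13, 9, 0, 1, 1 and 0 in the order above.

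Over all genes, calls moved most with the scores: to 8 and 26 of 2378 in Rbpj-/-, 384 and 308 of 5794 in Notch1-/-Notch2-/-, and 10 and 218 of 4174 in Notch1-/- (microglia and macrophage first, oligodendrocyte next). In Rbpj-/- the 10 CPM filter gave 1533, voom 3747, the block 1304, the compared genotypes 1222, and no mixed libraries 1492; voom gave 6907 in Notch1-/-. In Notch2-/- (46) the alternatives gave 12 to 1790, in Rbpj-/- against Notch1-/-Notch2-/- (124) 31 to 317, in Notch1-/- against Notch2-/- (482) 142 to 1904, and for the interaction (12) 5 to 924. Leaving out 1 library moved the count over all genes to 1132 to 3292 in Rbpj-/-, 21 to 83 in Notch2-/-, 21 to 156 in Rbpj-/- against Notch1-/-Notch2-/-, 275 to 841 in Notch1-/- against Notch2-/- and 5 to 227 for the interaction. Genes with a few counts per library were tested only with no filter, where Neurog2 passed in Notch1-/- and Dlx2 in Notch1-/-Notch2-/-.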
